A study of Mus musculus with 6 samples.

Results

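Cdkn1b encodes p27, an inhibitor of cyclin-dependent kinases, and it is described here in mouse mammary tumour cell lines with and without the kinase gene Akt1. It was found as every probe set that the authors' expression sheet labels Cdkn1b, which gave 1 probe set (1419497_at) and so 1 of 4462 named genes. The gene was chosen because its level differed between the genotypes, and the sheet gives a symbol only where its own p-value is under 0.05, so the values of Cdkn1b below are a description and carry no test. Any other probe set of the gene that did not differ has no symbol in the sheet, and one that differed may also lack it. Such probe sets could not be recognised as Cdkn1b here.

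Expression arrays were made from 6 lines, 1 array per line. Lines 31, 101 and 102 are akt(+/+) and lines 72, 75 and 116 are akt(-/-). All 6 came from spontaneous mammary tumours of mice with an ErbB2 oncogene driven by the MMTV promoter, which is active in mammary epithelium. The tumours were digested with collagenase, the suspension was plated briefly so that fibroblasts would attach and be left behind, and the cells were carried for 25 passages in medium with serum, insulin, hydrocortisone, EGF and cholera toxin. The labels do not give the age of the mice, the way in which Akt1 was removed or whether any lines share an animal. P-values therefore measure the spread between lines, and in such bulk RNA fewer cells with a transcript and less transcript per cell cannot be told apart.

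p27 binds complexes of cyclins with their kinases and slows the passage of cells from G1 into S phase. Akt phosphorylates FoxO transcription factors, which activate the Cdkn1b gene, and this keeps them out of the nucleus. Akt also phosphorylates the human p27 protein, which holds it in the cytoplasm, and p27 is further removed by ubiquitin ligases such as the Skp2 complex. The arrays measure RNA and hold no information on p27 protein or on where it or FoxO lies in the cell.

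The sequence just before the Cdkn1b gene is shown because FoxO factors are known to act on the promoter of this gene. It is the 250 bases upstream of the transcript start in RefSeq, build GRCm38.p6, chr6:134920151-134920400 on the plus strand, 5′ to 3′, with each TGTTT (the forkhead core) and every CCAAT (the box bound by NF-Y) in capitals.
Cdkn1b promoter: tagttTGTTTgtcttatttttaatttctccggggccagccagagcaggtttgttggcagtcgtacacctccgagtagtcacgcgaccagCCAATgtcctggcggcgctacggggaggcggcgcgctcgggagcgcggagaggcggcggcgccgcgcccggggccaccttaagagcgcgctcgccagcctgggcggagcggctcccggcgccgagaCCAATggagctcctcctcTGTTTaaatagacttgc
Both strands were searched for each motif, and none of the matches overlap. TGTTT occurred at 2 places, which begin 245 and 17 bases before the start, and CCAAT at 2 places, which begin 161 and 35 bases before it. Of 32851 upstream windows of the same length in the RefSeq table, 46.4% held at least 1 TGTTT and 33.8% at least 1 CCAAT, and 18.3% and 10.1% held 2 or more. The longer FoxO motif TGTTTAC, which contains TGTTT, was not found in this window and was in 3.17% of all windows. GGGCGG, a site of the Sp1 family, occurred once, beginning 61 bases before the start, and was in 32.7% of windows. The window was rich in G and C, at 64.4% against a median of 52.4%. Of the other FoxO target genes listed here, 31 had an entry, and 11 of them held TGTTT, 4 TGTTTAC, 15 CCAAT and 26 GGGCGG. A match is a run of letters and not a measured binding site.

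Akt1, the gene removed, was checked first. It measured 9.71, 10.09 and 10.03 log2 units in lines 31, 101 and 102 and 4.62, 4.57 and 4.38 in lines 72, 75 and 116, a drop of 5.42 ± 0.15 (SE; limma, adjusted p = 0.000405). A second Akt1 probe set was 3.02 lower (adjusted p = 0.0106). Every line matched the genotype in its label.

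Cdkn1b was lower in every akt(-/-) line than in any akt(+/+) line. It measured 6.95 in line 31, 5.93 in line 101 and 6.29 in line 102, a mean of 6.39 ± 0.52 log2 units (SD, n = 3). In the lines without Akt1 it measured 3.56 in line 72, 3.96 in line 75 and 3.75 in line 116, a mean of 3.76 ± 0.20 (SD, n = 3). The difference was -2.63 log2 units, or 6.19-fold lower in akt(-/-). The groups did not overlap: the lowest akt(+/+) line stood 1.97 log2 units, or 3.91-fold, above the highest akt(-/-) line. Over all 45037 probe sets 10.8% showed the same lack of overlap in that direction, and since Cdkn1b was chosen on this contrast nothing is read from the comparison.

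**Figure D1:**
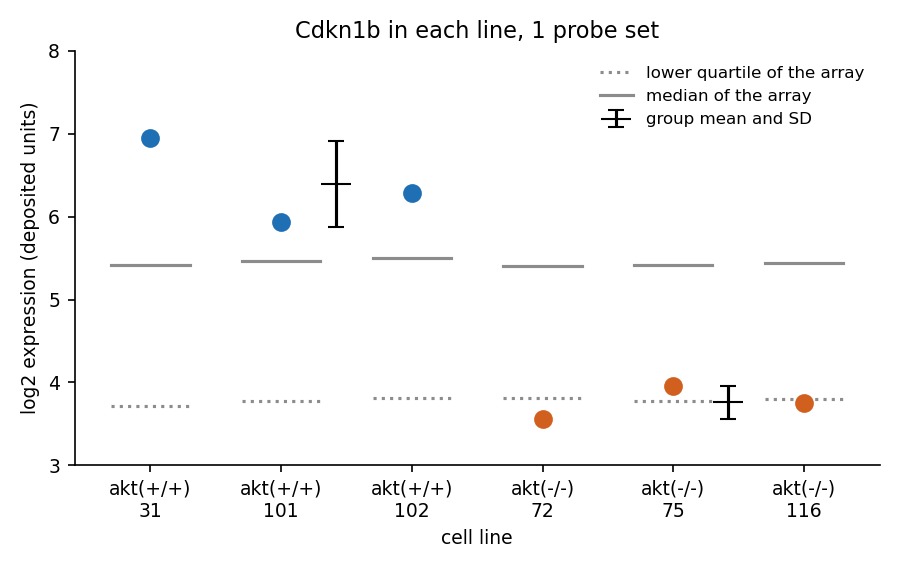
Log2 expression of Cdkn1b (vertical axis, deposited units) in each of the 6 lines (horizontal axis), with the mean and SD of each genotype and the lower quartile and median of all probe sets on the same array as short lines. The akt(+/+) lines lie between 5.93 and 6.95, above their array medians, and the akt(-/-) lines between 3.56 and 3.96, close to the lower quartile.

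Ranks of Cdkn1b on each array gave the same order. They restate the same values, since the arrays were alike in scale, with medians of 5.41 to 5.50. Cdkn1b stood at the 67.8th, 56.1st and 60.0th percentile of all probe sets in lines 31, 101 and 102. In lines 72, 75 and 116 it stood at the 21.1st, 27.8th and 24.2nd. The akt(-/-) values lay at the lower quartile of their arrays, which was 3.71 to 3.81 over the 6 arrays, so that the probe set was dim there. No detection call came with the values, and how far 3.76 lies above background was not analysed here.

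The spread of Cdkn1b was unequal between the genotypes. From line 101 to line 31 it spanned 1.02 log2 units (2.03-fold), and its SD of 0.52 was above that of 90.5% of probe sets in the akt(+/+) lines. From line 72 to line 75 it spanned 0.40 (1.32-fold), with an SD of 0.20 that exceeded 52.0% of probe sets in the akt(-/-) lines. The order from high to low was 31, 102, 101, 75, 116 and 72. Each line has 1 array, so neighbours in that order within a genotype have no spread of their own to be compared with. Akt1 did not run in parallel within the akt(+/+) lines: line 31 was highest in Cdkn1b and lowest in Akt1.

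The authors' deposited table gives Cdkn1b a p of 0.00122, a B score of 2.72 and a signed fold of -6.19. Among probe sets its drop ranked 13th of 45037, where 1% of probe sets were lower than -1.31. Among named genes it ranked 8th by drop and 188th by deposited p. Because the gene was chosen on this contrast, these ranks are a description. The authors' deposited pathway sheet, with 12 KEGG pathways and 145 gene listings, lists Cdkn1b in none.

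Array quality measures also differed between the genotypes. The bioC hybridisation control averaged 9.08 log2 units on the akt(+/+) and 7.81 on the akt(-/-) arrays, without overlap. The gap between the 3′ and 5′ probe sets of Actb was 2.88 to 3.29 and 3.44 to 3.53 log2 units, again without overlap, while that of Gapdh was 2.07 to 3.30 and 3.18 to 3.89. On the first principal component (35.7% of the variance) line 75 scored 8.08, between line 102 at 16.3 and line 72 at -52.6. The part of these measures in the Cdkn1b difference was not tested.

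The genes around p27 were followed in 11 lists of regulators, partners and targets, with 260 genes apart from Cdkn1b, of which 91 had a named probe set. The others had none, which says nothing about their level. Of the 91, 42 were lower and 49 higher in akt(-/-), and 3 passed at an adjusted p under 0.05 (limma): Akt1, Crebbp and Kdm5a, all lower. Over the whole array 0.107% of probe sets passed, 0.0977% lower and 0.00888% higher, and of named genes 33 of 4462 (0.74%). At an unadjusted p under 0.05 there were 80 of the 91, which follows largely from the naming, against 15.4% of all probe sets. For the same reason the 2 genotypes did not overlap in 99.9% of named genes, so that a lack of overlap sets no named gene apart. A difference of 2-fold or more together with an unadjusted p under 0.05 was seen in 13 lower and 3 higher members of the 91. The same held for 12% and 3.12% of all named genes, near the shares of the members, and for 2.14% and 0.668% of all probe sets. Akt1 was the sole member with a larger difference than Cdkn1b. Since Cdkn1b was chosen on this contrast, nothing is read from that comparison.

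**Figure D2:**
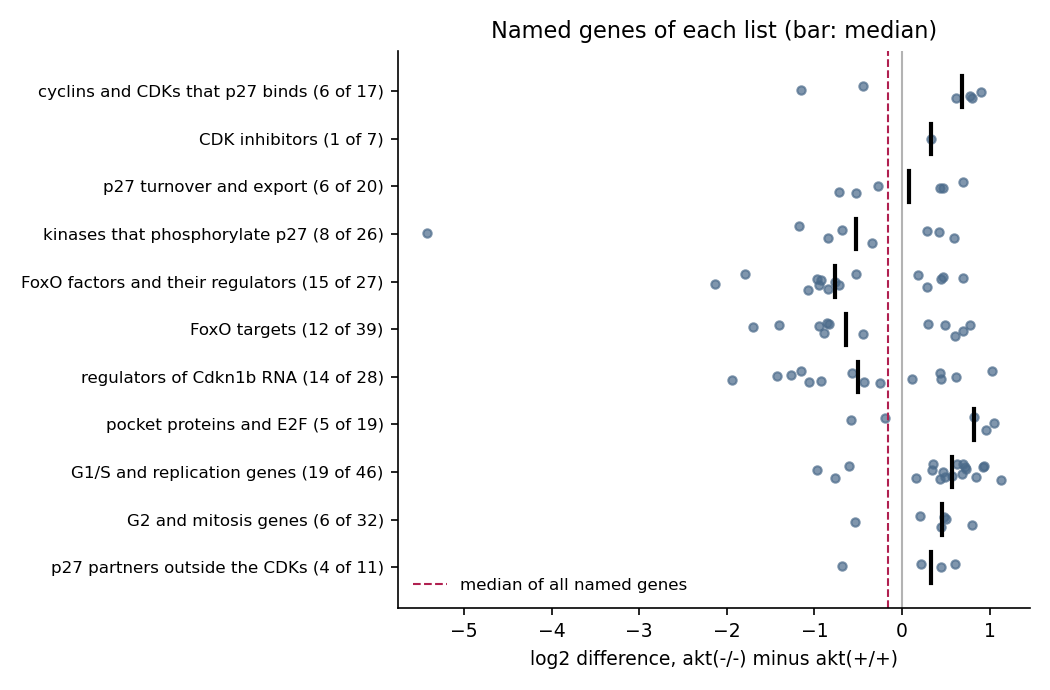
Log2 difference, akt(-/-) minus akt(+/+) (horizontal axis), of the named genes of each list other than Cdkn1b, with the number named of the number listed; each point is a gene, black bars are list medians and the dashed line is the median of all named genes, -0.16. The list medians run from -0.77 for FoxO factors and their regulators to 0.82 for pocket proteins and E2F.

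The FoxO factors were themselves measured. Foxo1, the main FoxO factor of insulin signalling, read 9.28, 9.14 and 9.14 log2 units in lines 31, 101 and 102 and 8.45, 8.42 and 8.52 in lines 72, 75 and 116, a difference of -0.72 ± 0.12 (SE) that did not pass (limma, adjusted p = 0.0794). Within each genotype the lines read nearly alike. A second Foxo1 probe set differed by -0.71, while the dimmest one was 0.59 higher. Foxo3, which activates death and arrest genes, differed by -0.95 at its brighter probe set (adjusted p = 0.163) and by 0.36 at the other. Foxo4 read 5.58 ± 0.08 and 5.76 ± 0.05 (SD, n = 3; adjusted p = 0.513). Foxo6 had no named probe set.

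The list of FoxO factors and genes that act on them was mostly lower at the brightest probe sets. Of all 4462 named genes 2269 were lower. Of 15 named members of the 27-gene list, the FoxO factors among them, 10 were lower and 5 higher, and 1 passed, with a median difference of -0.77 against -0.16 for all named genes. Averaging all probe sets of a gene moved that median to -0.31. Crebbp, an acetyltransferase that acetylates FoxO proteins and histones, read 9.92, 9.55 and 9.62 in the akt(+/+) lines 31, 101 and 102 and 7.71, 8.18 and 7.84 in the akt(-/-) lines 72, 75 and 116, and fell by 1.79 ± 0.18 (SE; limma, adjusted p = 0.0398). Its other probe sets differed by -1.93 and -0.16. Pdpk1, which phosphorylates Akt, differed by -1.07 (adjusted p = 0.0593), Ikbkb, a kinase of FoxO3, by -0.93 (adjusted p = 0.0616) and Ywhae, a phosphoprotein-binding adaptor, by -0.97 (adjusted p = 0.0798). Ywhaz, another adaptor, had 3 named probe sets that were higher and 4 that were lower. Usp7 and Mapk8, of the same list and lower at their brightest probe sets, were 1.05 and 0.15 higher at another.

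The other named targets of FoxO were mixed. Of 39 listed, 12 were named, 7 lower and 5 higher, with a median of -0.64. None passed (limma, with 11 at an unadjusted p under 0.05). Of all 4462 named genes 2269 were lower, with a median of -0.16. The list does not separate genes by the direction in which FoxO acts on them. Klf6, a zinc finger factor, read 6.60 ± 0.21 in akt(+/+) and 5.65 ± 0.09 in akt(-/-) (SD, n = 3; adjusted p = 0.0756), and Sod2, the mitochondrial superoxide dismutase, 10.74 ± 0.09 and 9.88 ± 0.19 (adjusted p = 0.0813). Neither passed. Prdx3, a mitochondrial peroxidase, differed by -1.40, Map1lc3b, an autophagosome protein, by -0.83 and Bcl2l11, a death-promoting protein, by -0.89, with adjusted p between 0.103 and 0.164. Pik3ca, the catalytic subunit of phosphoinositide 3-kinase, was 0.70 higher (adjusted p = 0.119). Over the list the differences ran from -1.70 to 0.77. Cdkn1b, at -2.63, was chosen on this contrast, so nothing is read from its larger drop.

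Regulators of the Cdkn1b transcript held the other gene that passed. Kdm5a, a histone demethylase of lysine residues on histone H3, read 9.78, 9.54 and 10.01 log2 units in lines 31, 101 and 102 and 7.72, 8.10 and 7.70 in lines 72, 75 and 116. It fell by 1.94 ± 0.18 (SE; limma, adjusted p = 0.0366), and a second probe set differed by -0.86. Its relative Kdm5b was 1.03 higher and did not pass (adjusted p = 0.0999). Men1 encodes menin, which activates Cdkn1b together with a histone methyltransferase. It read 6.68, 6.28 and 6.41 in the akt(+/+) lines 31, 101 and 102 and 5.46, 5.12 and 4.50 in the akt(-/-) lines 72, 75 and 116, a difference of -1.43 that did not pass (adjusted p = 0.0914). Stat3, a cytokine-responsive transcription factor, differed by -1.06 (adjusted p = 0.0581) and Ago2, the microRNA effector, by -1.15 (adjusted p = 0.0946). Of 28 genes in this list, 14 were named, 9 lower and 5 higher, with a median of -0.50.

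Leaving out line 31, 101, 102, 72 or 116 ended the calls of Crebbp and Kdm5a, with an adjusted p of 0.13 to 0.18 for Crebbp and 0.133 to 0.169 for Kdm5a (limma). The differences stayed near their size, at -1.86 to -1.67 for Crebbp and -2.06 to -1.82 for Kdm5a, and no more than 2 probe sets passed over the whole array in any of these fits. Without line 75, where 327 probe sets passed over the whole array against 48 with all lines, both passed. Among others so did Pdpk1 (adjusted p = 0.0495) and Kmt2a (adjusted p = 0.0472). The latter encodes the methyltransferase partner of menin and is named here after its values were seen. Averaging the probe sets of each gene also ended both (adjusted p = 0.0778 and 0.0897), and median centring ended that of Crebbp (adjusted p = 0.0513).

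**Figure D3:**
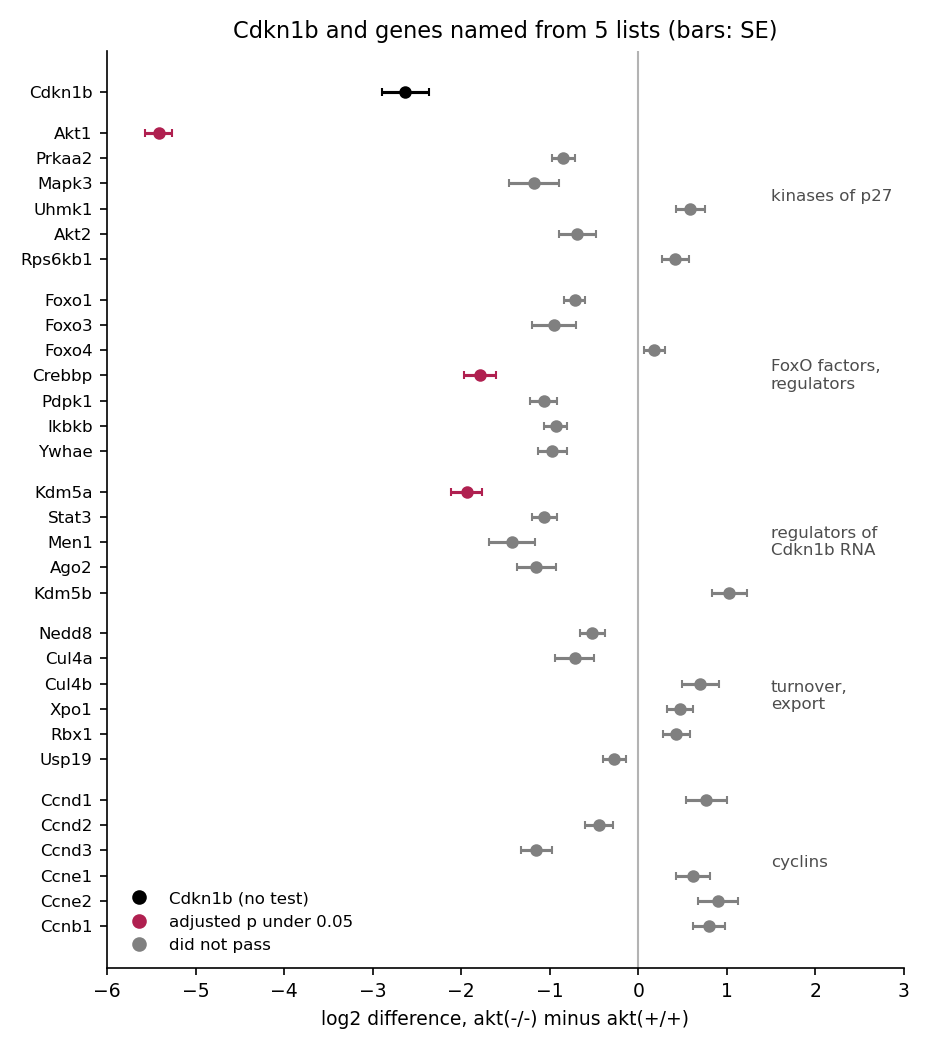
Log2 difference, akt(-/-) minus akt(+/+), with its standard error from limma (horizontal axis), for Cdkn1b and genes of 5 lists (vertical axis). Akt1, Crebbp and Kdm5a passed at an adjusted p under 0.05; cyclins lie on both sides of 0.

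Kinases known to phosphorylate p27 had 8 named members of 26, 5 lower and 3 higher, with a median of -0.52. Besides Akt1 none passed (limma; 7 of the 8 at an unadjusted p under 0.05). Akt2, the closest relative of Akt1 here, read 8.66, 8.07 and 7.98 in lines 31, 101 and 102 and 7.60, 7.66 and 7.37 in lines 72, 75 and 116 (difference -0.69, adjusted p = 0.208). Prkaa2, a catalytic subunit of the AMP-activated kinase, differed by -0.85 (adjusted p = 0.0712) and the MAP kinase gene Mapk3 by -1.18 (adjusted p = 0.135). Uhmk1, a kinase that targets human p27 for export, was 0.59 higher (adjusted p = 0.169). Rps6kb1, the ribosomal protein S6 kinase, disagreed between probe sets, 0.42 higher at the brighter and -0.92 at the other. So did Yes1, counted as lower by its brightest probe set (-0.34) but 0.91 and 0.77 higher at its others.

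Genes of p27 removal and export gave no clear side. Of 20 listed, 6 were named, 3 lower and 3 higher, none passed (limma; 5 at an unadjusted p under 0.05), and their median was 0.08, or -0.16 after averaging the probe sets of each gene. Skp2, Cks1b, Cul1 and Skp1, the parts of the ligase that recognises p27, had no named probe set. Cul4b, a cullin scaffold, was 0.70 higher and its relative Cul4a differed by -0.72, Nedd8, the modifier that activates cullins, by -0.52, and Usp19, a deubiquitinating enzyme, by -0.27. Xpo1, the nuclear export receptor, was 0.47 higher with another probe set at -0.26, and Rbx1, the RING subunit of cullin ligases, 0.43 higher with another probe set at -0.35. All 6 missed the threshold (limma, adjusted p from 0.171 to 0.393).

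Cdkn2c, which encodes an inhibitor of the INK4 family, was the sole other CDK inhibitor named, of 7 listed. It read 5.15, 5.28 and 5.06 log2 units in lines 31, 101 and 102 and 5.53, 5.58 and 5.37 in lines 72, 75 and 116. It was 0.33 higher without Akt1 and did not pass (limma, adjusted p = 0.307). Cdkn1a and Cdkn1c, the other members of the p27 family, had no named probe set.

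The cyclins to whose complexes p27 binds did not move as 1 group. Of 17 cyclin and kinase genes 6 were named, 2 lower and 4 higher, and none passed (limma; 6 at an unadjusted p under 0.05). The D cyclins, which couple growth signals to the cell cycle, were split. Ccnd3 read 10.03, 9.90 and 10.29 in lines 31, 101 and 102 and 9.03, 9.06 and 8.70 in lines 72, 75 and 116, a difference of -1.15 (adjusted p = 0.0679). Ccnd1 was 0.77 higher (adjusted p = 0.206) and Ccnd2 differed by -0.44 (adjusted p = 0.258). The E cyclins, which act with Cdk2 at the start of S phase, were both higher, Ccne2 by 0.90 (adjusted p = 0.157) and Ccne1 by 0.62 (adjusted p = 0.207), as was the mitotic cyclin Ccnb1 by 0.80 (adjusted p = 0.129). Cdk2, Cdk4 and Cdk6 had no named probe set.

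Replication genes act in the S phase that p27 delays. Of 46 listed, 19 were named, 16 higher and 3 lower in akt(-/-), with a median of 0.57, where 2193 of the 4462 named genes were higher. None passed (limma; 18 at an unadjusted p under 0.05). Orc5, of the origin recognition complex, read 7.57 ± 0.04 and 8.41 ± 0.25 (SD, n = 3; adjusted p = 0.0941), and Mcm6 and Mcm4, of the replicative helicase, were 1.13 and 0.92 higher. Tyms, which makes thymidylate, was 0.73 higher and Rfc4, of the clamp loader, 0.94 higher (adjusted p = 0.157 for each). In mitosis genes 5 of 6 named, of 32 listed, were higher, with a median of 0.46, and none passed (limma; 5 at an unadjusted p under 0.05). Among pocket proteins and E2F partners, Rb1, the retinoblastoma gene, was 0.96 higher (adjusted p = 0.168), Lin9 and Lin54 of the complex that represses cell cycle genes in quiescence were 0.82 and 1.05 higher, with another Lin54 probe set at -0.59, and Hdac1, a histone deacetylase, differed by -0.58. The median of its 5 named genes was 0.82, or 0.23 after averaging the probe sets of each gene. Partners of p27 outside the cyclin kinases had 4 named genes of 11, of which the adaptor Grb2 differed by -0.69 and the GTPase Rhoa was 0.60 higher at its brightest probe set and 1.55 lower at another. Their median was 0.33, or -0.21 after averaging the probe sets of each gene.

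Markers of the cells that the lines could hold were looked at beside these differences. Krt8, a luminal keratin, read 12.41 in akt(+/+) and 12.72 in akt(-/-), far above the upper quartile of the arrays (7.56 to 7.65), and Epcam 7.99 and 8.79. Of 13 luminal markers 6 were named, 4 higher and 2 lower in akt(-/-), and none passed (limma; 5 at an unadjusted p under 0.05). Cldn3, a claudin, was 1.67 higher and Xbp1, a secretory cell factor, 1.33 higher, while Cdh1, E-cadherin, differed by -0.70 and Cldn7, another claudin, by -0.48. Their summed signal, in which Krt8 is the brightest, was 13.10 to 13.35 and 13.19 to 13.47 log2 units in the 2 genotypes. Named leukocyte markers, 3 of 11, summed to 8.79 to 9.35 in akt(+/+) and 8.16 to 8.46 in akt(-/-). The sum follows the brighter Coro1a (-0.69) and Laptm5 (-0.79), and Cd8a was 0.87 higher. The endothelial marker Plvap, 1 of 7, read 8.79 to 10.24 and 7.93 to 8.44, and the adipocyte marker Lipe, 1 of 6, 5.86 to 5.98 and 5.18 to 5.44. Ptprc, Pecam1 and Adipoq, the defining markers of these 3 cell types, had no named probe set, nor had any of 12 fibroblast markers, which does not show that they were absent. Basal markers, 2 of 9, summed to 9.36 to 9.70 and 8.82 to 9.08, which follows the brighter integrin gene Itgb4 (-0.56), while the keratin Krt5 was 0.60 higher. The part of any such cells in the Cdkn1b difference was not tested.

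The profile of Cdkn1b over the 6 lines was set against that of every other named gene by Pearson correlation. This is a description over 6 points that share the genotype difference, and 353 of 4461 named genes had an r of at least 0.95. Of all other probe sets 1.11% did. Among the 8 genes most like it, leaving out names of the Gm and Rik kinds, were Gmpr2 (r = 0.997), C77534 (0.995), Msh3 (0.994), AW046287 (0.994), Hnrnpl (0.994), Plec (0.994) and BC021438 (0.993). Hnrnpl, an RNA-binding protein, had the difference nearest in size to that of Cdkn1b among the 8. It read 7.49, 6.50 and 6.82 in lines 31, 101 and 102 and 4.86, 5.12 and 4.68 in lines 72, 75 and 116, a difference of -2.05. Plec, the cytoskeletal linker plectin, differed by -1.82 and Gmpr2, a GMP reductase, by -0.84, while Msh3, a mismatch repair gene, differed by no more than -0.26. In each of these, as in Cdkn1b, line 31 was the highest. The 3 most opposite were Smarcd3, a chromatin remodelling subunit (r = -0.997, 0.17 higher), D6Ertd109e (r = -0.996, 1.26 higher) and the potassium channel gene Kcna6 (r = -0.995, 0.41 higher). The r was 0.984 with Foxo1 at its brightest probe set and 0.960 with Akt1, and 241 named genes lay above Akt1. No r was taken for the dimmest Foxo1 probe set, which was 0.59 higher in akt(-/-). The choice of the 8 was not stable: leaving out any 1 line kept 1 to 4 of them, with 4 kept without line 75.

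**Figure D4:**
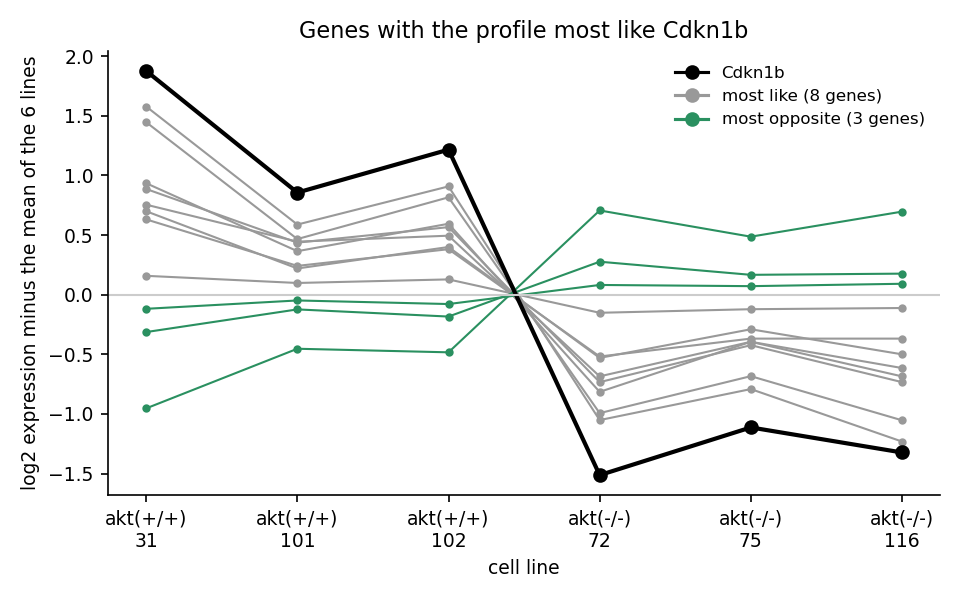
Log2 expression minus the mean of the 6 lines (vertical axis) in each line (horizontal axis) for Cdkn1b, the 8 named genes most like it and the 3 most opposite; lines join the values of 1 gene. Line 31 is the highest in Cdkn1b and line 72 the lowest.

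The place of Cdkn1b on the chromosome was not used to choose it. Of the 10 protein-coding genes on each side of it on chromosome 6, in the gene order of GRCm38.p6, 3 of 20 were named (15%), against 17.9% of all protein-coding genes. Lrp6, a Wnt co-receptor 6 genes before it, read 7.63, 7.74 and 7.54 in lines 31, 101 and 102 and 6.77, 6.65 and 6.47 in lines 72, 75 and 116, a difference of -1.0 that did not pass (limma, adjusted p = 0.0593). On the other side Gprc5a, 3 genes away, was 0.24 higher and Emp1, 9 genes away, 0.23 higher (adjusted p = 0.43 and 0.423). The direct neighbours Gpr19 and Apold1 had no named probe set. Over chromosome 6, 94 of the 175 other named genes were lower in akt(-/-) (53.7%), with a median of -0.23. Over the 20 chromosomes together 2077 of 3918 named genes were lower (53.0%), close to the share on chromosome 6. Among the 20 chromosomes compared, that share ranked 8th and the shares ran from 33.9% on chromosome 1 to 83.3% on chromosome 19.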

How the data were processed

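RNA of 6 lines was amplified with a whole-transcript kit and labelled with biotin, 1 array per line, per the labels' protocols. Log2 expression of 45101 probe sets was deposited both as a sheet and as a value table, which differ by at most 5.0e-09. The scanner settings, background method and normalization were not given in the sources used here. Each probe set also has a p-value deposited by the authors and, where it is under 0.05, a log2 difference, a B score and mostly a symbol; signed fold scores were deposited for genes changed at least 2-fold. Array medians were 5.41 to 5.50. Precision is limited by 3 arrays per group.

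The deposited values were analysed with limma 3.58.1 in R 4.3.3 (lmFit, eBayes, no covariate) on 45037 probe sets without 64 controls, with Benjamini-Hochberg adjustment over all of them and a threshold of 0.05. The fit was tried on simulated independent normal values with its own variance model, which hold no differences in array quality. No result here rests on that trial. A gene was represented by its brightest named probe set. Of 4485 deposited symbols 3146 were current in RefSeq (GRCm38.p6), 960 matched 1 synonym and 379 were kept. Probe set annotation from other sources was not used here.

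The gene, the lists and the tests were chosen with earlier results of these data known. Lists were described by counts and medians, with no set test. Named were Cdkn1b, Akt1, up to 6 members of smallest p per list and all that passed, other CDK inhibitors and FoxO factors, the 8 genes most like Cdkn1b and the 3 most opposite, and its neighbours. Some genes that this rule selects are not reported here by name; they stay in the counts and medians.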

Additional observations from a re-analysis of the deposited data

How the results depend on the processing

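The Cdkn1b difference of -2.63 moved by less than the SD between lines of a genotype under median centring, quantile normalization, the value table and unlogged means. With any 1 line left out it also moved by less than that SD, and ran from -2.86 to -2.35. Its direction could not change there, because the groups did not overlap, and the value table holds nearly the same values. These alternatives therefore describe only the size of the difference. The median of chromosome 6 ran from -0.26 to -0.19 over its alternatives.

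Counts depended on the lines. The 48 probe sets called became 239 with array weights and 1 to 327 with 1 line left out: 2 without line 31, 327 without line 75 and 1 without any other. The 3 list members called became 7 with array weights, Pdpk1, Stat3 and Ikbkb among those added, 1 after averaging a gene's probe sets and 1 to 6 with 1 line left out. Of the 8 genes most like Cdkn1b, 5 stayed with median centring, 4 after averaging probe sets and 1 to 4 with 1 line left out.

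After averaging a gene's probe sets the list medians became -0.16 for turnover and export and -0.21 for partners outside the kinases, both reversed, -0.31 for FoxO factors and their regulators, -0.62 for regulators of Cdkn1b RNA and 0.23 for pocket proteins, and the differences of Rhoa (-0.40), Rps6kb1 (-0.25) and Ywhaz (-0.03) reversed, because other probe sets of these genes differ in sign or size. With 1 line left out the median ran from -0.57 to -0.42 for kinases, -0.69 to -0.51 for FoxO targets and 0.48 to 0.67 for replication genes. Over 649 recomputed differences of 59 single genes, 13 lost and 2 gained a call; the cause was not tested. No paired analysis was possible because the genotypes share no line number. Arrays have no read depth; the akt(-/-) level of Cdkn1b lay near the lower quartile of signal.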
